A study of Mus musculus with 12 samples.

Results

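The genes described here code for the subunits of potassium, calcium and sodium channels, taken as every promoter window whose symbol follows the Kcn, Cacn or Scn naming patterns of these families. They filled 132 of the 55385 promoter windows of the study: 92 potassium, 26 calcium and 14 sodium channel genes, all protein-coding in RefSeq. By the part each subunit plays they fell into 12 classes. The study profiled chromatin of untreated C57BL/6 mouse embryonic forebrain (E12.5) in 2 genotypes, wild type and EedcKO, the latter named for Eed, an essential part of the Polycomb complex PRC2. Eed was measured against input by X-ChIP, a chromatin immunoprecipitation on cross-linked DNA. CUT&Tag, in which an antibody guides a transposase to cut nearby DNA, gave trimethylated and acetylated lysine 27 of histone H3 (H3K27me3, H3K27ac), RNA polymerase II (here RNA-Pol2) and IgG as control. With 1 library per genotype and target, 12 in all, differences could not be checked against replicates, and p-values are not reported. The deleted stretch of Eed, the driver of the deletion and the number of embryos per library are not stated in the sources used here.

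PRC2 places H3K27me3 on the promoters of genes that a cell keeps off, and Eed holds the complex on chromatin that already carries the mark; acetylation of the same lysine excludes trimethylation of it and is found at active promoters. Voltage-gated channels carry the currents of the action potential: sodium channels start it, potassium channels end it, and calcium channels couple it to transmitter release and to signalling inside the cell. Most of the forebrain at this stage consists of dividing progenitors and young neurons, in which many channel subunits of the adult brain are not yet in use.

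The promoters below show the range that the results turn on, and were picked after their values were seen. Each run is the 250 bases before the start site in RefSeq (GRCm38.p6), with CG dinucleotides (CpG) in capitals. Kcng3 (chr17:83631896-83632145, minus strand) codes for a modifier subunit that opens no channel by itself, and its 250 bases held 41 CpG. Cacna2d1 (chr5:15934441-15934690, plus strand), an auxiliary calcium channel subunit, held 36. Kcna2 (chr3:107101317-107101566, plus strand) and Kcna3 (chr3:107035912-107036161, plus strand) are neighbouring Shaker-type potassium channel genes with 18 and 31 CpG. Kcnk4 (chr19:6934516-6934765, minus strand), a mechanosensitive leak channel, held 3. Scn2a (chr2:65620519-65620768, plus strand), a principal sodium channel of central axons, held 2.
Kcng3: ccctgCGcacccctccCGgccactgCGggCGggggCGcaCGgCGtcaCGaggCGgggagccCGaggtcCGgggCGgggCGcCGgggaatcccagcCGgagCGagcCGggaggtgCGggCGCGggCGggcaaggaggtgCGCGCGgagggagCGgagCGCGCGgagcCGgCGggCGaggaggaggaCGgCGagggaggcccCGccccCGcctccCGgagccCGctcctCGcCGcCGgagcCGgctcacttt
Cacna2d1: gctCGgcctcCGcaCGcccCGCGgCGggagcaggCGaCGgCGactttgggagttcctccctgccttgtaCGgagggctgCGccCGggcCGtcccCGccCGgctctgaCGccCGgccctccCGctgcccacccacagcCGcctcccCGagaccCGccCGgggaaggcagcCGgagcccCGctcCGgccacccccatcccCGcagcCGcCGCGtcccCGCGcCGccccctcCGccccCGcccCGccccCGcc
Kcna2: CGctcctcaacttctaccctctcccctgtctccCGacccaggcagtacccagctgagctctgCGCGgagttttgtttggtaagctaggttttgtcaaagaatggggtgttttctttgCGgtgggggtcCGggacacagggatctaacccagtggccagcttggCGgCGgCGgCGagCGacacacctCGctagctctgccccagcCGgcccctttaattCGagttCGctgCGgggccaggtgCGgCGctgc
Kcna3: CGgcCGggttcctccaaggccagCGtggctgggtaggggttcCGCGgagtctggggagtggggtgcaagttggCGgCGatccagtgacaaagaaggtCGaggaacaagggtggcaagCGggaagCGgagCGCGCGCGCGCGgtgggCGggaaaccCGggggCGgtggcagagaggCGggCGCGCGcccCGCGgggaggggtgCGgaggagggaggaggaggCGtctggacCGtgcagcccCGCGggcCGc
Kcnk4: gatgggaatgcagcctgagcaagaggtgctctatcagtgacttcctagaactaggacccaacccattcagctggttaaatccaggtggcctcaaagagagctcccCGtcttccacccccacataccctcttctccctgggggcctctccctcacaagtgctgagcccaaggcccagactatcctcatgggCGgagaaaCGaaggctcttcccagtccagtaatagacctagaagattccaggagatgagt
Scn2a: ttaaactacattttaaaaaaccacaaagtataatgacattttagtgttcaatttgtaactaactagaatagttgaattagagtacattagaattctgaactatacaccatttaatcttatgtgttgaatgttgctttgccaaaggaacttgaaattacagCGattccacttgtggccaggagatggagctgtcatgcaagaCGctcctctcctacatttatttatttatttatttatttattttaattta
Wild type H3K27me3 counts in the 2 kb windows that contain these runs were 855 for Kcng3, 616 for Cacna2d1, 244 for Kcna2, 36 for Kcna3, 1240 for Kcnk4 and 21 for Scn2a. The windows are centred on the start sites of the deposited count tables, which need not be those of RefSeq. The order of these counts was not the order of the CpG numbers: Kcna3, with 31 CpG, had fewer counts than Kcnk4, with 3. A RefSeq promoter lay inside the window for 86 of the 132 genes, or 65.2%, which is under the 80% set for a check over the set, so such a check of CpG content is void and none is reported.

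Values are counts in a 2 kb window centred on 1 start site per gene, and a ratio between 2 libraries is a log2 ratio of depth-scaled counts per kb (RPKM) relative to the median of all promoters tested, so that 0 is the median promoter. A ratio of at least 1, a 2-fold difference, is the size rule. Shares over protein-coding promoters and all windows are given at this scaling only. Counts at other scalings, which move every promoter by a common amount, have no matching share. Library totals over all windows ran from 948955 to 3842779 counts, and no channel window was empty in any library, the lowest count being 3. All 132 windows passed the filter on low values in every comparison. For 21 of them the window overlaps that of another gene, so their counts are shared. Of 10 forebrain and cortical progenitor markers, 7 passed the size rule for wild type H3K27ac over IgG, and 8 for H3K27me3. Of 10 neuron markers 6 passed for H3K27ac, against 0 of 8 endothelial, 1 of 8 microglia and macrophage, 1 of 7 erythroid, 1 of 8 mesenchyme and pericyte, and 2 of 8 skeletal muscle markers. The shares for H3K27ac were 42.9% of protein-coding promoters and 23.3% of all windows. In H3K27me3, 4 neuron, 5 endothelial, 2 microglia and macrophage, 2 erythroid, 4 mesenchyme and pericyte, and 5 skeletal muscle markers passed. The shares for H3K27me3 were 33.1% and 19.1%. All 8 regulators of other body regions passed for H3K27me3, with a median ratio of 5.94. In tissue of several cell types, fewer cells with a mark and less of the mark per cell cannot be told apart. The window of the Eed gene itself gave 121 Eed counts in wild type and 40 in EedcKO. The same pair was 31 and 79 under the label H3K27me3, 130 and 35 under H3K27ac, 89 and 246 in RNA-Pol2, 27 and 19 in input, and 20 and 50 in IgG; a promoter count does not check a deletion.

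At channel promoters the library labelled EedcKO H3K27ac went against its label. Across the 132 windows, which share window size and library depth, the library labelled EedcKO H3K27ac had in log2 RPKM a Pearson r of 0.98 to wild type H3K27me3 and of 0.13 to wild type H3K27ac. Over all 55385 windows these were 0.94 and 0.68. For the library labelled EedcKO H3K27me3, r was 0.38 against wild type H3K27me3, 0.64 against wild type H3K27ac and 0.76 against wild type RNA-Pol2, and over all windows 0.74, 0.87 and 0.93. Kcnk4 had 1240 wild type H3K27me3 counts, 1785 in the library labelled EedcKO H3K27ac and 45 in the library labelled EedcKO H3K27me3. Kcnh3, a brain-enriched potassium channel of the EAG family, had 1304, 1740 and 44. These are the libraries' own counts, and whether labels were exchanged was not tested. Values of both EedcKO histone libraries are therefore given under the labels as deposited, without a statement about the mark in EedcKO tissue.

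**Figure D1:**
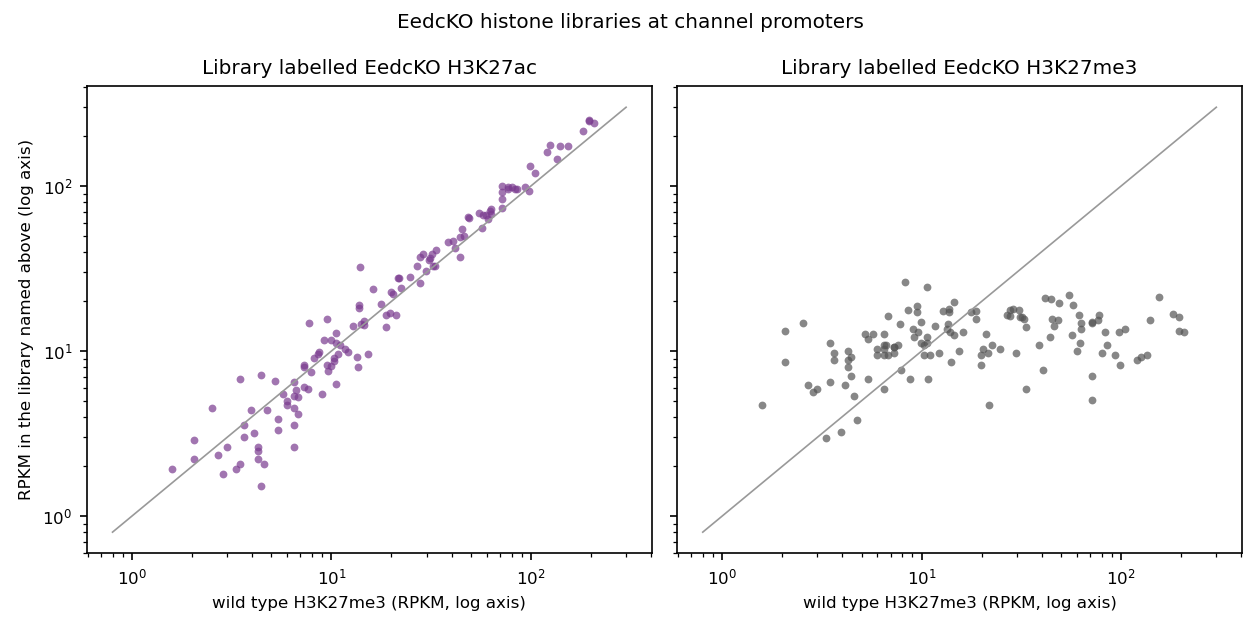
RPKM of the 132 channel promoters in wild type H3K27me3 (x axis, log scale) against the library labelled EedcKO H3K27ac (left) and the library labelled EedcKO H3K27me3 (right), with the grey line marking equal values. In the left panel the points follow the line (correlation 0.98), and in the right panel promoters with high wild type H3K27me3 lie far below it (correlation 0.38).

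In wild type forebrain, 77 of the 132 channel promoters had H3K27me3 at least 2-fold over IgG, with a median ratio of 1.43, where 33.1% of protein-coding promoters and 19.1% of all windows passed the same rule and the protein-coding median was 0.50. With library totals as the only scaling, 51 channel promoters passed, and relative to the median protein-coding promoter 63. The shares were not recomputed at these scalings, which move every promoter by the same amount. H3K27ac over the same IgG library passed at 29 channel promoters, with a median of 0.51. Among protein-coding promoters 42.9% passed (23.3% of all windows), with a median of 0.76. With library totals only 17 channel promoters passed, and relative to the median protein-coding promoter 9, again without recomputed shares. Of the channel windows left when the 21 overlapping ones were dropped, 18 passed. The ratios of both marks share the IgG library, so no overlap between them is counted. The deposited summit lists, called in each library by itself, placed a wild type H3K27me3 summit in 48 channel windows, against 12.7% of protein-coding windows (6.40% of all), and an H3K27ac summit in 9, against 21.7% (10.3% of all). With a score of at least 10 the H3K27ac count was 1. By these summits 45 windows held H3K27me3 alone, 6 H3K27ac alone, 3 both and 78 neither, against 10.1%, 19.1%, 2.59% and 68.2% of protein-coding windows. The 6 with an H3K27ac summit alone were Kcnh5, Kcnj11, Kcnn2, Kcnv1, Kcnip3 and Cacng4, and both summits were found at Kcnn1 and Kcnab2, among others. Of the 6, 4 passed the size rule for H3K27ac, and 2 passed it for H3K27me3 though they held no H3K27me3 summit. Just inside the size rule for H3K27me3 lay Kcnj9 and Kcnn3, both at a ratio of 1.04, and just outside it Kcne3 at 0.92 and Kcnk7 at 0.88.

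**Figure D2:**
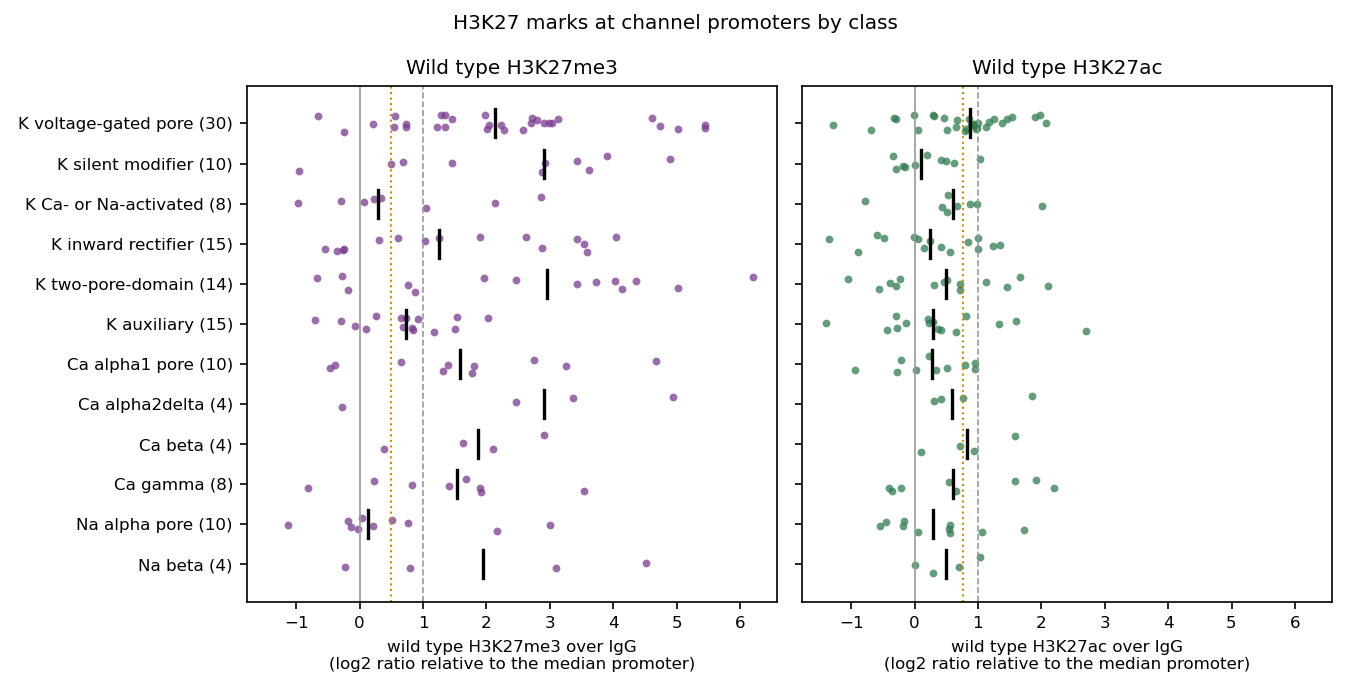
Wild type H3K27me3 (left) and H3K27ac (right) over IgG, as log2 ratios relative to the median promoter (x axis), for each channel gene (point) by class (number of genes in brackets), with black bars at class medians, a dotted line at the protein-coding median and a dashed line at 2-fold. H3K27me3 ran up to 6.20 (Kcnk4) and H3K27ac up to 2.70 (Kcnab2), and most sodium alpha subunits lay near 0 for H3K27me3.

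Pore-forming voltage-gated potassium subunits, which shape and end the action potential, had H3K27me3 at least 2-fold over IgG at 23 of 30 promoters, with a class median of 2.14. For this and the later classes, the H3K27me3 share was 33.1% over protein-coding promoters and 19.1% over all windows. The H3K27ac shares were 42.9% and 23.3%. Kcna7, a Shaker-type channel best known from muscle, had 590 H3K27me3 counts against 11 IgG counts, a relative log2 ratio of 5.45 (95% counting interval 4.77 to 6.63). Kcnh3 had 1304 against 26, also a ratio of 5.45 (4.96 to 6.14). Kcnc4, an A-type channel of the Shaw family, had 1236 against 45. These intervals (exact, Clopper-Pearson, from the 2 counts) cover counting error only. Of other Shaw-type genes, which let neurons fire fast, Kcnc2 had 398 H3K27me3 counts and Kcnc1 258. Of the genes for the M-current, which holds back repeated firing, Kcnq5 had 201 counts against 46 IgG counts, and Kcnq3 had 87 against 31. Kcnq1, the slow delayed rectifier of heart and epithelia, had 454 against 59. The delayed rectifier Kcnb2 had 33 against 38, a ratio of -0.25. Kcna10, Kcnd1 and Kcnh6 also stayed under 2-fold, with 27, 23 and 49 counts. In H3K27ac, 9 of the 30 passed, among them Kcnd3, with 70 counts against 25 IgG counts, a ratio of 1.38 (0.74 to 2.14).

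The silent modifier subunits, which form no channel alone and change Kcnb channels they join, had H3K27me3 at least 2-fold over IgG at 7 of 10 promoters, with a median of 2.90. Kcng3 had 855 H3K27me3 counts against 25 IgG counts, a ratio of 4.89 (4.40 to 5.60). Kcns1 followed with 625 counts, Kcng2 with 487 and Kcng1 with 486. Kcnv1, a modifier known from cortical neurons, had 67 H3K27me3 counts against 44 IgG counts. It had the highest H3K27ac ratio of the class, 1.03, from 95 counts. The lowest of the class was Kcnv2, known from photoreceptors, with 22 H3K27me3 counts against 43 IgG counts.

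Channels opened by calcium or sodium inside the cell had a lower median H3K27me3 ratio, 0.28, where the protein-coding median was 0.50. Of these 8, 3 passed (37.5%), which is near the 33.1% of protein-coding promoters. Kcnn1, a small-conductance channel that follows action potentials with a hyperpolarization, had 175 H3K27me3 counts and 93 H3K27ac counts against 21 IgG counts, ratios of 2.86 and 2.02. Kcnt1, the sodium-activated channel, had 176 H3K27me3 counts against 36 IgG counts. Kcnma1, the large-conductance BK channel, had 41 against 48, a ratio of -0.29 (-0.99 to 0.28). Inside its gene span lay 8 wild type H3K27me3 summits, the nearest 9162 bp from the start site. That number was not set against the length of the gene.

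Inward rectifiers, which hold the resting potential, passed for H3K27me3 at 9 of 15 promoters, with a median of 1.26. Kcnj4, a strong inward rectifier of forebrain neurons, had 885 counts against 48 IgG counts, a ratio of 4.04 (3.66 to 4.53). The G-protein-gated members Kcnj3, Kcnj5 and Kcnj6, through which transmitters slow neurons and heart, had 195, 509 and 210 counts, and Kcnj9 had 74. Kcnj10, the glial potassium channel, had 92 H3K27me3 counts and the highest H3K27ac ratio of the class, from 95 counts against 35 IgG counts. The epithelial members Kcnj1, Kcnj13, Kcnj15 and Kcnj16 had 41, 22, 34 and 10 H3K27me3 counts, all under 2-fold over IgG.

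The two-pore-domain leak channels passed at 9 of 14 promoters, with the highest class median, 2.95, and the widest range. Kcnk4 had 1240 H3K27me3 counts against 14 IgG counts, a ratio of 6.20 (5.59 to 7.22), the highest of all 132. Kcnk12 had 1147 counts, Kcnk9, an acid-sensitive leak channel, 792, Kcnk13 663 and Kcnk1 212. At the other end Kcnk2 had 27 counts and Kcnk16 had 26, against 30 and 41 IgG counts. By ratio Kcnk10, a relative of Kcnk2 and Kcnk4, had the highest H3K27ac of the class, 2.11, from 63 counts against 13. Its H3K27me3 ratio was 1.96, from 58 counts against the same 13. A wild type H3K27ac summit lay in 0 of the 14 windows. Auxiliary potassium subunits, which adjust gating and trafficking of the pore subunits, passed for H3K27me3 at 4 of 15, with a median of 0.74. By ratio Kcnab2, a cytoplasmic beta subunit, was the highest of them in both marks, at 2.03 for H3K27me3 and 2.70 for H3K27ac. It had 119 H3K27me3 and 185 H3K27ac counts against 26 IgG counts. Its window overlaps that of Nphp4, and to which gene the counts belong cannot be told apart. The 4 Kcne subunits measured ran from 0.92 (Kcne3) down to -0.29 (Kcne1) in H3K27me3 over IgG.

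Pore subunits of calcium channels passed for H3K27me3 at 7 of 10 promoters, with a median of 1.59, and for H3K27ac at 0 of 10. The low-voltage-activated T-type genes, which support rhythmic and burst firing, were the 3 highest in counts: Cacna1i had 454, Cacna1g 347 and Cacna1h 309, against 15, 32 and 41 IgG counts. The P/Q-type, N-type and R-type genes of presynaptic terminals followed, with 136 counts for Cacna1a, 205 for Cacna1b and 129 for Cacna1e. The L-type genes of brain and heart were at the bottom. Cacna1c had 17 H3K27me3 counts against 24 IgG counts, a ratio of -0.46 (-1.61 to 0.33), and Cacna1d 18 against 24. Cacna1s, the L-type channel of skeletal muscle, had 119 against 41, in a window it shares with Ascl5. For Cacna1c the nearest H3K27me3 summit lay 90990 bp from the start site counted here, inside the gene span; windows cover 1 start site per gene, so other start sites are not measured.

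Auxiliary calcium channel subunits, which bring the pore to the membrane and tune it, passed for H3K27me3 at 3 of 4 alpha2delta, 3 of 4 beta and 5 of 8 gamma promoters. Cacna2d1, the binding site of gabapentin drugs, had 616 H3K27me3 counts against 17 IgG counts, a ratio of 4.94 (4.36 to 5.84), and 68 H3K27ac counts. Cacna2d3 had 397 and Cacna2d2 306, while Cacna2d4, known from the retina, had 57 against 65. Cacnb3 led the beta subunits with 263 H3K27me3 counts against 31, and Cacnb1, the beta subunit of skeletal muscle, had 86. Among the gamma genes Cacng6 had 395 counts against 30. Cacng2 (stargazin), which carries AMPA receptors to synapses, had 102 against 24, and Cacng4 had 54 H3K27me3 and 77 H3K27ac counts against 15, an H3K27me3 ratio of 1.67.

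Sodium channel pore subunits stood lowest among the classes: 2 of 10 passed for H3K27me3, with a median of 0.13 that lies below the protein-coding median. Scn8a, the main channel of mature nodes of Ranvier, was one of them, with 68 H3K27me3 counts against 13 IgG counts. Other principal brain channels were nearer to IgG: Scn1a had 46 counts against 25, Scn2a 21 against 20, and Scn3a, the fetal brain form, 13 against 9. Scn3a had the highest H3K27ac ratio of the class, 1.72 (0.76 to 3.10), from 34 counts against 9. Of the beta subunits, which anchor and modulate the pore, Scn4b had 758 H3K27me3 counts against 29, a ratio of 4.52 (4.04 to 5.17). Scn3b and Scn2b were under 2-fold, with 81 against 43 and 28 against 32.

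**Figure D3:**
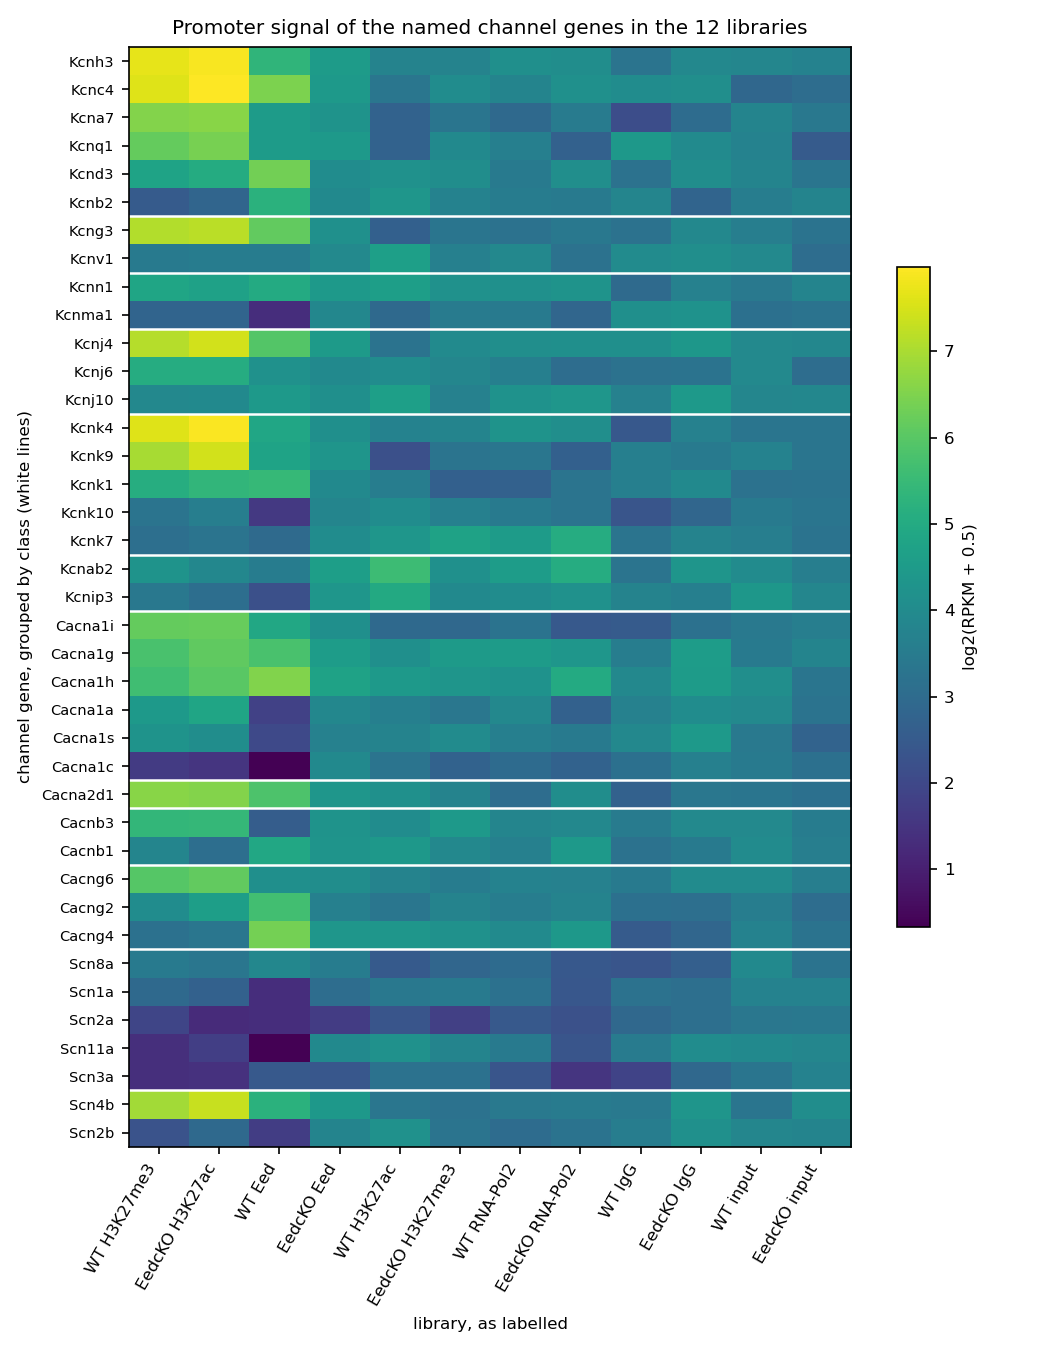
Promoter signal of named channel genes (rows, grouped by class) in the 12 libraries (columns, as labelled), coloured by log2(RPKM + 0.5). The wild type H3K27me3 column and that of the library labelled EedcKO H3K27ac are bright at the same genes, with Kcnh3, Kcnc4 and Kcnk4 highest, while the input and IgG columns span a narrower range.

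Sorted by where a channel is best known to work, 34 of 44 channels of central neurons had H3K27me3 at least 2-fold over IgG, with a median of 2.07, against 7 of 26 channels of muscle, heart, epithelia, sense organs or testis, with a median of 0.27. The first list includes channels at the level of IgG, such as Scn2a and Cacng8 (19 counts against 10), and the second includes high ones, such as Kcna7 and Kcnq1. In H3K27ac, 11 of 44 and 1 of 26 passed. Of 60 other channels, pumps and channel partners, 29 passed for H3K27me3, with a median of 0.93, and 20 for H3K27ac. The shares of protein-coding promoters were 33.1% for H3K27me3 and 42.9% for H3K27ac (19.1% and 23.3% of all windows). Against the protein-coding share for H3K27me3, the central neuron list was higher and the muscle, heart, epithelia, sense organ or testis list somewhat lower. For H3K27ac both of these lists were below the protein-coding share. The lists were chosen with earlier results of these data known, and they carry no test.

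Some channel genes that lie side by side in the genome differed from each other, while others had like counts. Of the 49 channel genes whose start sites lie within 500 kb of another, Scn4b had 758 H3K27me3 counts and Scn2b 28, with start sites 20613 bp apart. Kcnj5 had 509 and Kcnj1 41, at 28143 bp. In the cluster on chromosome 3, Kcnc4 had 1236 and Kcna2 244, but Kcna3 and Kcna10 had 36 and 27. Cacng6 had 395, Cacng7 65 and Cacng8 19. Among neighbours with like counts, Kcnk15 had 452 and Kcns1 625, and Kcnj9 had 74 and Kcnj10 92. The Shaker-type cluster on chromosome 6 was high throughout, with 292 counts for Kcna1, 188 for Kcna6 and 157 for Kcna5. The sodium channel genes on chromosome 2 were low throughout, from 13 for Scn3a to 55 for Scn9a.

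**Figure D4:**
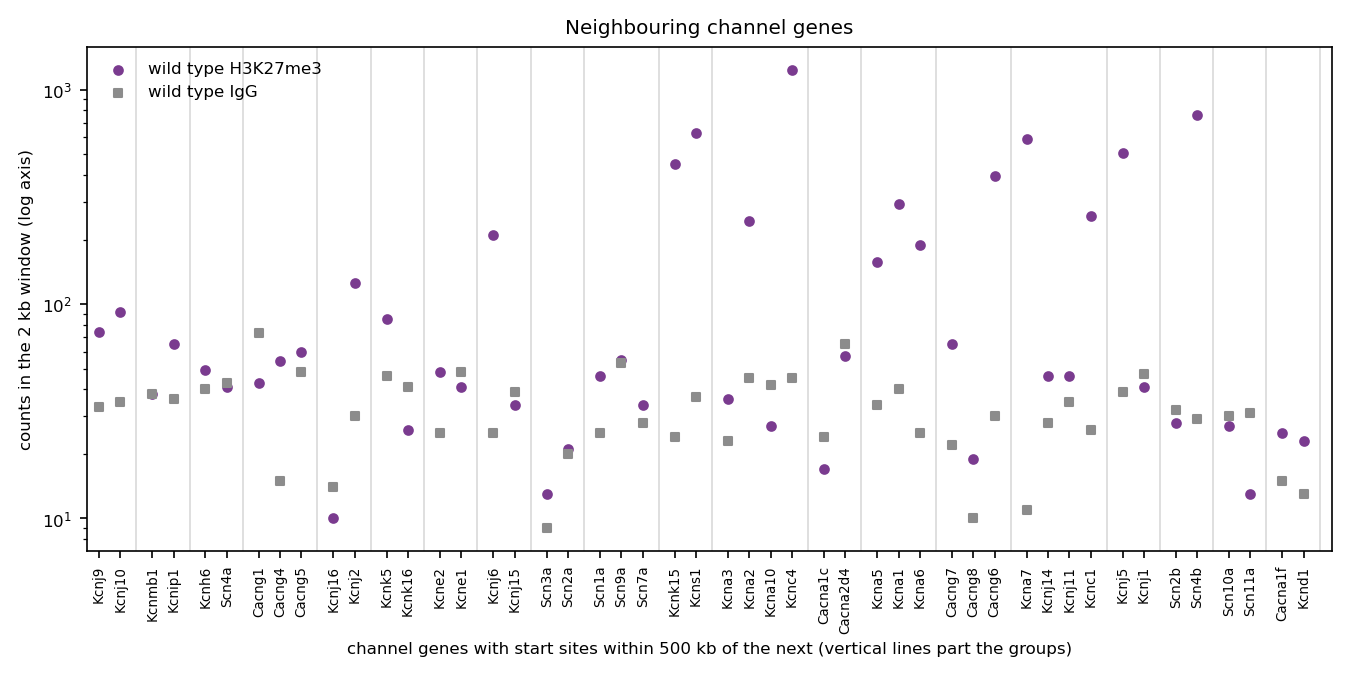
Wild type H3K27me3 counts (purple circles) and IgG counts (grey squares) in the 2 kb window of each channel gene (log axis), for genes with start sites within 500 kb of the next, with vertical lines between groups. Within groups, Scn4b (758), Kcnj5 (509), Cacng6 (395) and Kcnc4 (1236) stand above their neighbours, of which Kcna2 (244) and Cacng7 (65) were themselves at least 2-fold over IgG.

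The size rule and the summit lists placed the mark differently at some genes. Of the 77 promoters that passed for wild type H3K27me3, 29 had no H3K27me3 summit in the window, and 19 of these had one within 5 kb of the start site. Kcnh3, with 1304 counts, was one of them, its nearest summit lying 1126 bp from the start site. Of the 55 that did not pass, none had a summit in the window. Inside the gene span 12 had at least 1, among them Cacna1c, Cacna1d, Kcnma1 and Kcnip1. The counts of 19 and 12 were not computed over protein-coding genes or set against gene length. They are not read as a trait of channel genes.

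Eed, measured by a different assay against its own input, passed 2-fold over input at 81 of 132 channel promoters in wild type, with a median ratio of 1.80, against 52.0% of protein-coding promoters and 28.4% of all windows. With library totals only, 48 passed, and relative to the median protein-coding promoter 51, with the shares not recomputed for either. Of the 77 promoters that passed for H3K27me3, 64 (83.1%) also passed for Eed, against 77.8% of the protein-coding promoters that passed for H3K27me3. Of the 55 that did not pass for H3K27me3, 17 (30.9%) passed for Eed. Among the 14574 protein-coding promoters that did not pass for H3K27me3 the share was 37.1%. By these shares Eed alone was not more common at channel genes. The 14574 include windows below the filter on low values, while all 55 channel windows passed it, so the sets are not alike. Kcnc4 had the highest Eed ratio, 4.92 (4.24 to 5.90), from 350 Eed counts against 14 input counts. Cacna1h had 359 Eed counts against 34, and Cacng4 324 against 26. Eed without H3K27me3 was seen at Kcna3, with 190 Eed counts against 27 input counts and 36 H3K27me3 counts against 23 IgG counts, and at Kcnb2, with 144 against 23 and 33 against 38. By the size rule the opposite was seen at Cacnb3, with 22 Eed counts against 30 input counts and 263 H3K27me3 counts against 31. It was also seen at Kcnj5, with 14 against 26 and 509 against 39. The summit lists differed from this at Cacnb3. All 4 calcium beta windows, Cacnb3 among them, held a wild type Eed summit, and 0 held a wild type H3K27me3 summit. A wild type Eed summit lay in 87 channel windows, against 54.8% of protein-coding windows (29.1% of all).

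In EedcKO forebrain, Eed passed 2-fold over input at 15 of the 132, with a median of 0.58, against 7.55% of protein-coding promoters and 5.16% of all windows; relative to the median protein-coding promoter 6 passed. Kcnc4 went from 350 Eed counts in wild type to 63 in EedcKO, with 14 and 15 input counts. Kcnd3, an A-type channel of heart and brain whose window overlaps that of its antisense gene Kcnd3os, went from 321 to 47, Cacng4 from 324 to 57 and Cacng2 from 198 to 35. Their relative log2 ratios of EedcKO to wild type were -2.88 (-3.32 to -2.52) for Kcnc4, -3.17 (-3.68 to -2.76) for Kcnd3, -2.91 (-3.37 to -2.53) for Cacng4 and -2.89 (-3.50 to -2.41) for Cacng2. Over the 132, Eed was at least 2-fold lower in EedcKO at 69 and higher at 24, with a median ratio of -1.06, where 48.2% of protein-coding promoters (30.0% of all windows) were lower and 16.3% (22.6%) higher. This split depended on scaling: with library totals only it was 33 lower and 40 higher, and relative to the median protein-coding promoter 32 lower and 42 higher. The median promoter itself moved by 0.88 on the log2 scale between these libraries. At the 77 promoters with wild type H3K27me3, the median Eed ratio over input was 2.72 in wild type and 0.71 in EedcKO, and 56 of them were at least 2-fold lower in EedcKO. At the other 55, 20 were at least 2-fold higher, and in wild type their Eed counts had a median of 11 against 21 in input. Cacna1c was one of these, with 3 Eed counts in wild type and 44 in EedcKO, against 22 and 16 input counts. The counts of 56 and 20 were taken relative to the median promoter only. The same split was not computed over protein-coding promoters. Between the input libraries 2.25% of protein-coding promoters (2.50% of all windows) were at least 2-fold lower and 2.36% (3.34%) higher. An Eed summit lay in 36 channel windows in EedcKO, against 16.0% of protein-coding windows (9.40% of all), and in 0 when only summits with a score of at least 10 were taken.

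**Figure D5:**
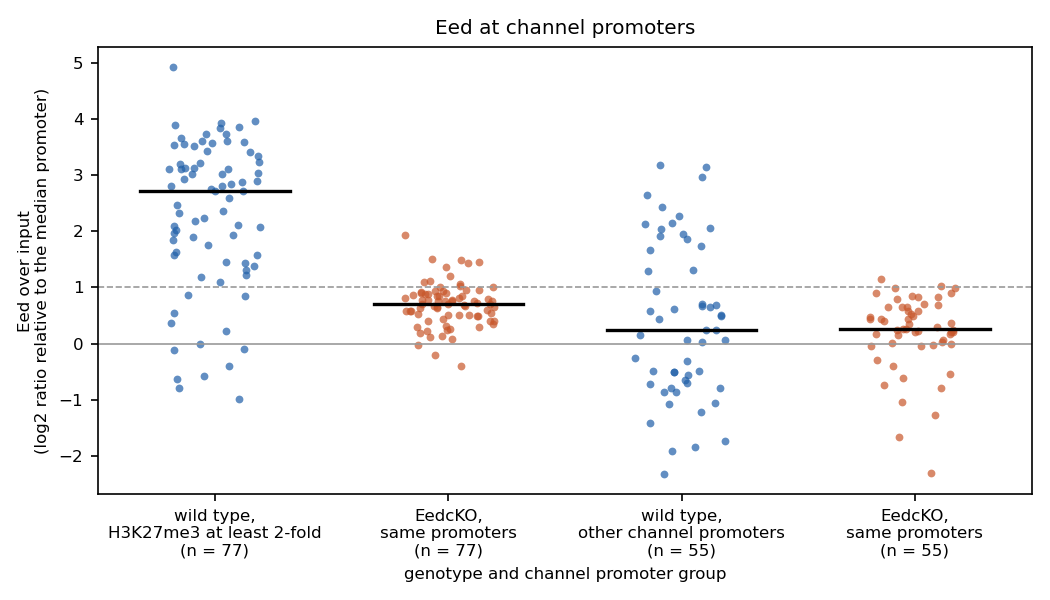
Eed over input as log2 ratios relative to the median promoter (y axis) at the 77 channel promoters with H3K27me3 at least 2-fold over IgG in wild type and at the other 55, in wild type (blue) and EedcKO (orange), with black bars at medians. At the 77 the median was 2.72 in wild type and 0.71 in EedcKO.

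Under the labels as deposited, the library labelled EedcKO H3K27me3 was at least 2-fold lower than wild type H3K27me3 at 69 channel promoters and higher at 2 (Kcnt2 and Scn11a), with a median ratio of -1.10, where 18.0% of protein-coding promoters (13.0% of all windows) were lower and 8.11% (6.80%) higher. With library totals only, 48 were lower and 16 higher. The library labelled EedcKO H3K27ac was at least 2-fold higher than wild type H3K27ac at 69 and lower at 3 (Kcnmb3, Cacna2d4 and Scn11a), with a median of 1.09, against 20.7% of protein-coding promoters higher (18.2% of all windows) and 18.3% lower (11.7%). With library totals only, 58 were higher and 36 lower. With both EedcKO histone libraries exchanged, these counts became 1 lower and 4 higher for H3K27me3 and 8 lower and 3 higher for H3K27ac, with medians of 0.39 and -0.21. Kcnk9 had 16 wild type H3K27ac counts and 1282 in the library labelled EedcKO H3K27ac, beside 792 wild type H3K27me3 counts. Kcnip3, which tunes A-type channels, had 120 wild type H3K27ac counts and 59 in that library. Against EedcKO IgG, the library labelled EedcKO H3K27ac passed 2-fold at 77 channel promoters, with a median of 1.39, against 23.1% of protein-coding promoters (14.5% of all windows), and 50 passed with library totals only. Wild type H3K27me3 over wild type IgG also passed at 70 of these 77 (90.9%), against 82.2% of the protein-coding promoters that passed. The library labelled EedcKO H3K27me3 passed at 5, among them Cacng4, Kcnmb4, Kcnk7 and Kcnb2, against 2417 of 20181 protein-coding promoters and 7.78% of all windows. Relative to the median protein-coding promoter this count was 1. The summit list labelled EedcKO H3K27ac reached 54 channel windows (11.4% of protein-coding windows, 5.92% of all), and 38 of these (70.4%) were among the 48 with a wild type H3K27me3 summit. Of the protein-coding windows in that labelled list, 80.1% held a wild type H3K27me3 summit. The list labelled EedcKO H3K27me3 reached 0 channel windows (2.50% of protein-coding windows, 1.18% of all). Between the IgG libraries 4.28% of protein-coding promoters (6.77% of all windows) were at least 2-fold lower and 11.6% (7.33%) higher.

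For RNA-Pol2 the share of channel promoters that passed was below that of protein-coding promoters in both genotypes. In wild type 18 passed 2-fold over IgG, with a median of 0.21, against 27.3% of protein-coding promoters (15.3% of all windows). With library totals only this count was 11, and relative to the median protein-coding promoter 9, without recomputed shares. Kcnk4 had 92 RNA-Pol2 counts against 14 IgG counts, and Kcnmb4, a brain BK beta subunit, had 105 against 19. In EedcKO 24 passed, with a median of 0.25, against 42.1% (23.4%). The count was 6 under library totals only and 5 relative to the median protein-coding promoter, without recomputed shares. With the 21 overlapping windows left out, 15 of the windows left passed. Of the 24, 19 were among the 77 promoters with wild type H3K27me3 and 5 among the other 55. The same split was not computed over protein-coding promoters, so it is not read as a trait of channel genes. Kcnk7 had the highest EedcKO count, 256 RNA-Pol2 counts against 41 IgG counts, and 113 in wild type. Summits lay in 6 channel windows in wild type (10.3% of protein-coding windows, 4.92% of all) and in 25 in EedcKO (40.3%, 19.7%), where the deposited EedcKO list was also longer, with 25930 summits against 3716. With a score of at least 10 these counts were 0 and 8.

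Between genotypes, 9 channel promoters had RNA-Pol2 at least 2-fold higher in EedcKO and 1 lower, with a median of 0.27, where 22.7% of protein-coding promoters (12.2% of all windows) were higher and 4.19% (7.86%) lower. The directions turned with scaling: with library totals only 1 was higher and 6 lower, and relative to the median protein-coding promoter 0 were higher and 12 lower. With the 21 overlapping windows left out, 4 of those left were higher. Cacna2d1 had 39 RNA-Pol2 counts in wild type and 126 in EedcKO, with 17 and 31 IgG counts, a ratio of 1.43 (0.94 to 2.03). Cacnb1 went from 61 to 167 and Cacna1h from 90 to 242. The windows of Cacna2d1 and Cacnb1 overlap those of Gm3510 and Gm11629, and both genes are among those left out without overlapping windows. Of the 9, 5 were calcium channel genes (with Cacna2d3 and Cacna1f) and 4 potassium channel genes (among them Kcnd3, Kcnip2 and Kcnj16). Those of Cacna1f and Kcnj16 rest on 8 and 7 wild type counts. The 1 lower was Kcnk2, with 44 counts in wild type and 18 in EedcKO. No sodium channel gene passed in either direction: Scn1a had 43 and 37 counts and Scn2a 25 and 32.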

How the data were processed

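Forebrain at embryonic day 12.5 was profiled in 12 libraries, 1 for each genotype and target, grouped by their labels. Counts were taken as deposited by the authors, in tables of 55385 promoter windows, of which 2 were not 2 kb long; their title says RPKM, yet values are whole and totals differ. The deposited summit lists give 1 position per peak with a −log10 score, of p or q (not stated), the lowest just above 2. Per the submitters' processing notes the tools were ChIPseeker 1.22.1, deepTools 3.4.0, MACS2 2.2.7.1 and Bowtie2 2.4.1 on mm10. Filters on mapping quality and duplicates, and the control used for peaks, are not stated in the sources used here, and such choices can move counts. RPKM used window length and the library's total promoter count. Log2 ratios (pseudocount 0.5 RPKM, windows averaging 1 RPKM or more over the pair) were taken relative to the median tested window, with exact 95% Clopper-Pearson intervals, in Python 3.11.15 with pandas 2.3.3, numpy 2.4.6 and scipy 1.17.1, and checked on simulated data. With no replicates there is no test. The members and lists were chosen with earlier results of these data known. Named were the highest member of each class in each wild type mark, up to 3 members in each direction between genotypes (at least 20 counts and 2-fold over control in the higher library), and 15 textbook channels; others named beside them were chosen after their values were seen. Some members are counted but not reported here by name. RefSeq tables of GRCm38.p6, the same build as mm10, gave gene type, gene span and promoter sequence: all 132 members matched the gene table by symbol, 97 had a promoter sequence, and 86 of these lay inside their window. Alternatives were other pseudocounts, no filter, other scalings, exchanged EedcKO histone libraries, summit rules, and leaving out overlapping windows; centring on protein-coding promoters, and leaving out overlapping windows for ratios over control, were added after the data were seen.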

Additional observations from a re-analysis of the deposited data

How the results depend on the processing

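No paired analysis was possible because each genotype and target had 1 library, so no library could be left out either. Shares over protein-coding promoters were not recomputed at the other scalings. Counts of channel promoters over control moved by over 1.5 times in these cases. With library totals only they were 48 for wild type Eed, 51 for wild type H3K27me3, 17 for wild type H3K27ac, 11 for wild type RNA-Pol2, 6 for EedcKO RNA-Pol2, 50 for the library labelled EedcKO H3K27ac and 2 for the library labelled EedcKO H3K27me3. Relative to the median protein-coding promoter they were 51 for wild type Eed, 6 for EedcKO Eed, 9 for wild type H3K27ac, 9 for wild type RNA-Pol2, 5 for EedcKO RNA-Pol2 and 1 for the library labelled EedcKO H3K27me3. With the 21 overlapping windows left out they were 18 for wild type H3K27ac, 15 for EedcKO RNA-Pol2 and 3 for the library labelled EedcKO H3K27me3. Those counts are over fewer than 132 windows, so part of each fall is the smaller number of windows. With a pseudocount of 2 the count for the library labelled EedcKO H3K27me3 was 1. Between genotypes, library totals only gave 33 lower and 40 higher for Eed, 16 higher for H3K27me3, 36 lower for H3K27ac, and 6 lower and 1 higher for RNA-Pol2. Relative to the median protein-coding promoter these were 32 and 42 for Eed and 12 and 0 for RNA-Pol2. For RNA-Pol2 a pseudocount of 2 gave 0 lower and 5 higher, and leaving out the 21 overlapping windows gave 4 higher among the fewer left. Exchanging the EedcKO histone libraries gave 1 lower and 4 higher for H3K27me3 and 8 lower and 3 higher for H3K27ac, and turned the medians to 0.39 and -0.21. Wild type Eed over input at Scn8a turned to -0.10 with library totals only. Summits with a score of at least 10 lay in 0 channel windows for EedcKO Eed, 8 for EedcKO RNA-Pol2, 1 for wild type H3K27ac and 0 for wild type RNA-Pol2, with 1 window holding H3K27ac alone and 0 holding both marks. The cause of these shifts was not tested. All counts were within 1.5 times under a pseudocount of 0.1, no filter, and summits within 1 kb of a window. Channel medians of 20 to 108.5 counts limit what single promoters can show.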
